A study of Mus musculus with 6 samples.

Results

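Serpins are a family of proteins that mostly act as suicide inhibitors of proteases, and 9 serpin genes of mouse CD8 T cells are described here: Serpinb9, Serpinb6b, Serpinb9b, Serpinb6a, Serpinb1a, Serpine2, Serpinf1, Serpina3g and Serpina3f. They are 9 of the 68 serpin genes among the 46517 genes of the count tables, and were chosen by name with their levels in these libraries already known. The study compared CD8 T cells activated while exposed to medium from basophils, scarce granulocytes of the blood for which IL-3 is a growth and activation factor. T cells of C57BL/6J mice, purified as naive cells from spleen and lymph nodes, were activated for 3 days on plates coated with anti-CD3 (5 μg/mL), with anti-CD28 (0.5 μg/mL) and IL-2 (100 units/mL) in the medium. From day 1 to day 2 one group of 3 libraries received supernatant of basophils cultured for 2 days with IL-3 at 3 ng/mL, and the other group of 3 received supernatant of basophils cultured with PBS instead. Both kinds of basophil culture also held IL-2 at 100 units/mL, and no group without supernatant is among the 6 libraries. The age of the mice is not given in the sources used here, nor whether libraries came from separate mice or cultures, so spread between libraries may be technical.

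An inhibitory serpin offers an exposed stretch, the reactive centre loop, as bait. The protease cuts the loop and is trapped in a covalent complex as the serpin refolds, so the sequence of the loop sets which proteases are caught. Clade B serpins stay inside the cell, where cytotoxic lymphocytes use them against their own granule proteases. Clades A, E and F are mostly secreted, although Serpina3g, also known as Spi2A, lacks a working secretion signal and acts on lysosomal cathepsins in the cytosol. In CD8 T cells Serpinb9 and Serpina3g are known for protecting effector and memory cells from their own proteases.

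Summed expected counts ranged from 17377052 to 22174902 per library. A gene with 0 counts in a library may still have a level of up to 0.135 to 0.173 CPM (counts per 1e6 counts). This takes 3 counts as the limit of counting error, on unscaled library sizes. The CPM values of genes below are on library sizes scaled by TMM. PBS supernatant replicate 2 stood apart: a chi-square comparison of counts over genes gave 64.9 and 61.1 per degree of freedom against its group mates, whereas the other within-group pairs gave 13.6 to 25.8. Fold changes are therefore also given without it below. CD8 T cell markers were abundant in every library, with a summed level over 8 genes of 2319 to 2528 CPM with PBS supernatant and 1500 to 1620 CPM with IL-3 supernatant. The 8 basophil markers summed to at most 0.991 CPM in any library, with Mcpt8, Fcer1a, Ms4a2 and Prss34 at 0 counts in all 6. The marker sums of 5 other cell classes did not overlap between the groups: 3 CD4 T cell genes at 5.90 to 11.2 against 0.618 to 1.22 CPM, 5 NK cell genes at up to 44.4 against up to 12.4 CPM, 6 stromal and endothelial genes at 24.5 to 28.3 against 7.67 to 8.47 CPM, 6 B cell genes at 3.06 to 4.10 against 7.10 to 8.96 CPM, and 7 dendritic cell genes at 3.14 to 5.12 against 5.92 to 8.17 CPM. Of these markers, 2 of the NK cell, 2 of the dendritic cell and 1 of the stromal and endothelial genes had 0 counts in all libraries. Each gap lay largely in 1 gene, given here as mean CPM with PBS and IL-3 supernatant. These were Foxp3 (7.34 and 0.163), Eomes (41.6 and 11.5), Pecam1 (26.1 and 5.01), Ebf1 (0.413 and 4.76) and Zbtb46 (3.82 and 6.35). Cd4 and Cd79b overlapped between the groups. Pdpn rose from 0 to 2.43 CPM while its stromal and endothelial sum fell. The sum over 8 macrophage and monocyte genes overlapped between the groups (1.55 to 2.74 against 1.35 to 2.60 CPM), and 7 neutrophil genes summed to 0 CPM in every library. For scale, 43.6% of all 12407 tested genes, taken singly, had groups that did not overlap. The part of these cell classes in the results was not tested. In bulk RNA, fewer cells with a transcript and less transcript per cell cannot be told apart.

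The stretches that code for the reactive centre loop show how the closest relatives among these genes part ways. Below, each runs from the conserved hinge to the conserved end of the loop, taken from the longest open reading frame of the main GENCODE M21 transcript, 5′ to 3′. Capitals mark bases that differ from, or have no counterpart in, the paralog of the pair (Serpinb9 with Serpinb9b, and Serpinb6a with Serpinb6b).
Serpinb9: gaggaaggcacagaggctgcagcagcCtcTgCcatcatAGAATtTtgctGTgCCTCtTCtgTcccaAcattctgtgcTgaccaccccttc
Serpinb9b: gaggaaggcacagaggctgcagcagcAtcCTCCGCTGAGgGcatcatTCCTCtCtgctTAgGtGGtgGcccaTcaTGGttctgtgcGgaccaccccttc
Serpinb6a: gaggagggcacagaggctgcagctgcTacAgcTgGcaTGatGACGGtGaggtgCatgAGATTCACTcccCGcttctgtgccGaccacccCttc
Serpinb6b: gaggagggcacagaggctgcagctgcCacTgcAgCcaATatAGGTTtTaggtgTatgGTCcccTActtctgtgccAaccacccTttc
Serpinb9 and Serpinb9b were identical at 68.6% of aligned positions within this stretch and at 86.8% in the rest of the coding sequence. Serpinb6a and Serpinb6b were identical at 72.0% within it and at 86.7% in the rest. The opening bases, which code for the hinge, are in lower case throughout and so the same within each pair.

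The inhibitors of granzymes B and A held most of the serpin transcript with IL-3 supernatant, at levels 3.87-fold (Serpinb9) and 4.27-fold (Serpinb6b) above those with PBS supernatant. Serpinb9 (ENSMUSG00000045827, GRCm38 chromosome 13, 33003250 to 33017957, plus strand) encodes the intracellular inhibitor of granzyme B. Its level was 183, 174 and 149 CPM in PBS supernatant replicates 1, 2 and 3, and 631, 675 and 655 CPM in IL-3 supernatant replicates 1, 2 and 3. The lowest IL-3 library lay far above the highest PBS library. Its log2 fold change, IL-3 minus PBS supernatant, was 1.95 (SE 0.07), and 1.99 without PBS supernatant replicate 2. Serpinb6b (ENSMUSG00000042842, chromosome 13, 32965209 to 32979067, plus strand) encodes an inhibitor of granzyme A. It stood at 123, 125 and 110 CPM with PBS supernatant, and at 506, 499 and 525 CPM with IL-3 supernatant. These values left a wide gap between the groups, at log2 2.09 (SE 0.06), and 2.14 without PBS supernatant replicate 2. The ratio of Serpinb9 to Serpinb6b in TPM, a measure per length of transcript, was 0.837 to 0.895 in the PBS libraries and 0.767 to 0.823 in the IL-3 libraries. These 9 genes were selected on this same contrast, so their fold changes are a description and carry no test.

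Serpinb9b, the close relative of Serpinb9 that encodes an inhibitor of granzyme M, was scarce in both groups. Serpinb9b (ENSMUSG00000021403, chromosome 13, 33027416 to 33041884) had 14, 13 and 5 counts in the PBS libraries and 71, 54 and 55 in the IL-3 libraries. In CPM this was 0.595 ± 0.270 against 2.97 ± 0.627 (SD, n = 3 each). The log2 fold change was 2.30 (SE 0.41), and 2.47 without PBS supernatant replicate 2. Of the 9 genes, 8 passed the filter on low counts; on the PBS libraries alone 6 would have, because Serpinb9b and Serpinf1 passed only through the IL-3 libraries where they were high. Of the 50-base words in Serpinb9 transcripts, 0.378% also occur in another gene, all of them in Serpinb9b.

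The other clade B members differed little between the groups or were near the limit of detection. Serpinb6a (ENSMUSG00000060147, chromosome 13, 33917918 to 34002794, minus strand) encodes a widely expressed inhibitor whose targets include cathepsin G. It was at 37.2, 39.3 and 38.9 CPM with PBS supernatant, and at 46.8, 43.3 and 43.9 CPM with IL-3 supernatant. The groups did not overlap but lay close together, at log2 0.21 (SE 0.08), and 0.24 without PBS supernatant replicate 2. On the opposite strand its span overlaps Nqo2, Ripk1 and the antisense gene 1110046J04Rik, and 24.4% of its 50-base words occur in reverse complement in their transcripts. Whether counting used strand is not given in the sources used here, so reads from these stretches may belong to either gene. Nqo2 itself was lower with IL-3 supernatant (log2 -0.93, SE 0.19, edgeR adjusted p = 0.0010). Serpinb1a (ENSMUSG00000044734, chromosome 13, 32842092 to 32851185), an inhibitor of neutrophil elastase, cathepsin G and proteinase 3, had only 13, 9 and 7 counts with PBS supernatant and 7, 3 and 3 with IL-3 supernatant. It was below the filter and was not tested. The genes of its targets, Elane, Ctsg and Prtn3, had 0 counts in every library.

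**Figure D1:**
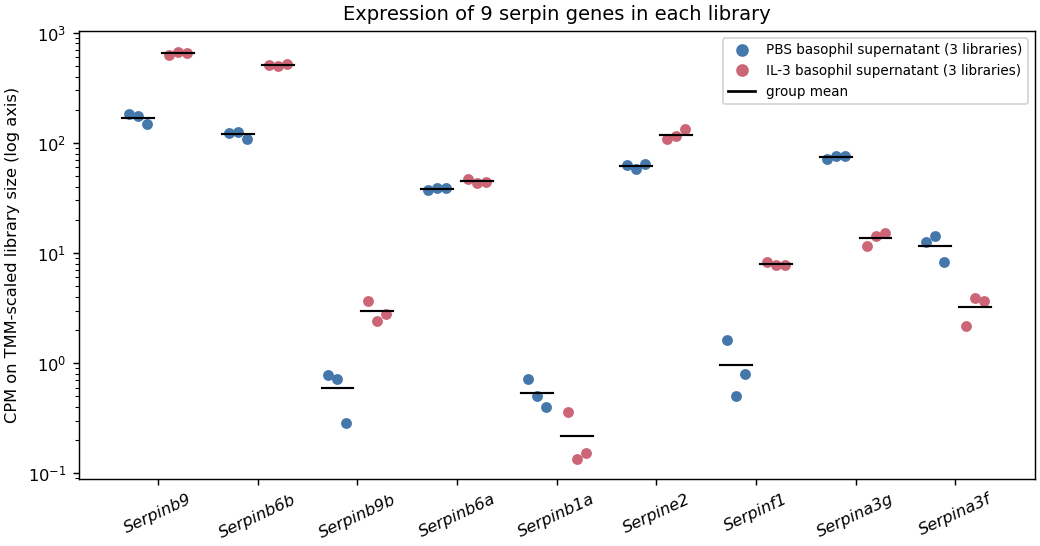
Level of each of the 9 serpin genes in each library, as CPM on TMM-scaled library sizes on a log axis, with 3 points per group and a bar at the group mean. Serpinb9 lies at 149 to 183 CPM with PBS supernatant and 631 to 675 CPM with IL-3 supernatant, while Serpina3g lies the other way, at 72.1 to 76.4 and 11.7 to 15.2 CPM.

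Among the secreted members, Serpine2 was 1.92-fold higher with IL-3 supernatant and Serpinf1 was higher from a very low level. Serpine2 (ENSMUSG00000026249, chromosome 1, 79794197 to 79861180, minus strand) encodes protease nexin-1, which inhibits thrombin and plasminogen activators. It was at 62.5, 58.5 and 64.4 CPM with PBS supernatant, and at 108, 115 and 134 CPM with IL-3 supernatant. All IL-3 libraries were higher, with more spread among them than among the PBS libraries. The log2 fold change was 0.94 (SE 0.08), and 0.92 without PBS supernatant replicate 2. Serpinf1 (ENSMUSG00000000753, chromosome 11, 75409769 to 75422701, minus strand) encodes PEDF, a secreted serpin that does not inhibit proteases and is known for blocking blood vessel growth. It had 29, 9 and 14 counts with PBS supernatant and 161, 171 and 151 with IL-3 supernatant, or 0.970 ± 0.577 and 7.90 ± 0.339 CPM (SD, n = 3 each). On the log2 scale the difference was 3.02 (SE 0.30). PBS supernatant replicate 1 held 29 of the 52 counts of its group, and the value was 3.60 without that library and 2.71 without PBS supernatant replicate 2.

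The clade A members were lower with IL-3 supernatant. Serpina3g (ENSMUSG00000041481, chromosome 12, 104236245 to 104241939, plus strand), the cathepsin inhibitor introduced above, was at 72.1, 76.4 and 75.3 CPM with PBS supernatant, and at 11.7, 14.1 and 15.2 CPM with IL-3 supernatant. The PBS libraries were tightly grouped and all far above the IL-3 libraries, which were 5.45-fold lower, at log2 -2.45 (SE 0.09), and -2.42 without PBS supernatant replicate 2. Serpina3f (ENSMUSG00000066363, chromosome 12, 104214544 to 104221129, plus strand), its neighbour in the genome, encodes a related antichymotrypsin-like protein. It was at 12.5, 14.2 and 8.21 CPM with PBS supernatant, and at 2.16, 3.92 and 3.68 CPM with IL-3 supernatant. Its log2 fold change was -1.83 (SE 0.25), and -1.65 without PBS supernatant replicate 2. Of the 50-base words of their transcripts, 15.5% for Serpina3g and 10.6% for Serpina3f also occur in other genes of the Serpina3 group, so the division of reads between them is uncertain. The ratio of Serpina3g to Serpina3f counts ranged from 5.37 to 9.17 in the PBS libraries and from 3.61 to 5.40 in the IL-3 libraries.

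In all 9 genes, whether tested or not, the 3 values of one group lay outside the range of the other, with 6 higher and 3 lower with IL-3 supernatant. Of all 12407 genes tested, 43.6% had groups apart in this sense (21.0% higher and 22.6% lower with IL-3 supernatant), and the 9 genes were picked with these values in view, so nothing is read from their count. In the order of the tested genes by fold change, Serpinf1 was 91st from the top, Serpinb9b 155th, Serpinb6b 175th, Serpinb9 207th, Serpine2 695th and Serpinb6a 2874th, while Serpina3g was 87th and Serpina3f 172nd from the bottom.

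The promoters of the lower pair resemble each other and share a motif. The windows below run from 250 bases before to 50 bases after the start site, from RefSeq on GRCm38.p6, and are shown because both genes were lower together and, for Serpinb9, as the contrasting case. Capitals mark matches on either strand to the STAT motif GAS (TTCNNNGAA), the core of the interferon motif ISRE (GAAA and GAAA with any 2 bases between) or the NF-kB motif.
Serpina3g, chr12:104235897-104236196, plus strand: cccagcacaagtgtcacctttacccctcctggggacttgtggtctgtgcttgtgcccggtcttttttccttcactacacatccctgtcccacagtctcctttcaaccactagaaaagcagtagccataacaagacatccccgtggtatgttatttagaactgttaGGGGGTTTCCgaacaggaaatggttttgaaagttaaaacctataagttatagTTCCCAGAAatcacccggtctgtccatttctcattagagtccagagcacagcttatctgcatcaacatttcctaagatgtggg
Serpina3f, chr12:104214294-104214593, plus strand: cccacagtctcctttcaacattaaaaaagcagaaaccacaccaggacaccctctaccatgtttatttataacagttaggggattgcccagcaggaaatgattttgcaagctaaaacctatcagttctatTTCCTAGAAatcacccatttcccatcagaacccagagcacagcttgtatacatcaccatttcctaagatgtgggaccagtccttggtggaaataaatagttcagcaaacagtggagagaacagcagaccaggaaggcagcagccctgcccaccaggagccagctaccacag
Serpinb9, chr13:33004291-33004590, plus strand: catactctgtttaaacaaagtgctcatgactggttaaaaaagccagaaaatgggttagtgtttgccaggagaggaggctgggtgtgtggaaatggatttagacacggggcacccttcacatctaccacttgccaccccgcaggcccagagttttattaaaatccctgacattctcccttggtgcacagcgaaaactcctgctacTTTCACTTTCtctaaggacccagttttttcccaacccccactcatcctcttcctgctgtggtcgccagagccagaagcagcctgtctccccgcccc
The Serpina3g and Serpina3f windows align over 214 positions with 79.0% identity, with the alignment offset between their start sites. Such likeness is not particular to the lower pair. The windows of Serpinb9 and Serpinb9b, both higher with IL-3 supernatant, align over 213 positions with 69.5% identity. Over full windows that pair was 56.5% identical, against 41.6% for the Serpina3g and Serpina3f windows shown. A GAS match begins 33 bases before the start site of Serpina3g and 121 bases before that of Serpina3f, and 8.3% of all 32851 promoter windows hold one. Serpinb9 has an ISRE core match 46 bases before its start site, which 3.44% of all windows hold. The second listed start site of Serpina3f has the same GAS match 210 bases upstream, and that of Serpinb6a has both a GAS and an ISRE core match. The NF-kB match of Serpina3g lies 85 bases before its start site, against 8.46% of all windows. Serpinb1a had no entry in the promoter table, and the AP-1 motif (TGANTCA, in 7.81% of windows) was found in none of the other 8. These are letter matches, not sites shown to be bound.

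Per length of transcript, in the deposited TPM, the order of the genes differed between the groups. In PBS supernatant replicates 1 and 3 Serpinb6b (119 and 102 TPM), Serpinb9 (106 and 85.4) and Serpina3g (103 and 107) were near equal, and their order changed between these libraries. With IL-3 supernatant Serpinb6b was first in all 3 libraries (478 ± 15.0 TPM, SD, n = 3), then Serpinb9 (376 ± 12.9), Serpine2 (106 ± 12.8), Serpinb6a (57.8 ± 2.88) and Serpina3g (18.1 ± 1.60), and these neighbours did not overlap. Serpinf1 followed at 14.6 to 16.4 TPM, which overlapped Serpina3g. Summed over all 68 serpins, the libraries held 460, 432 and 422 TPM with PBS supernatant and 1090, 1117 and 1162 TPM with IL-3 supernatant. Serpinb9 and Serpinb6b made up 44.4% to 49.0% of it with PBS supernatant and 75.3% to 76.6% with IL-3 supernatant. For PBS supernatant replicate 2 the values are sums of its deposited isoform TPM. Gzmb, which encodes granzyme B, exceeded Serpinb9 by 60.1, 63.1 and 70.8 times in TPM in the PBS libraries and by 33.7, 30.0 and 32.1 times in the IL-3 libraries. Gzmb was higher as well, at 12184, 11587 and 12220 TPM with IL-3 supernatant against 6403, 5976 and 6044 TPM.

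**Figure D2:**
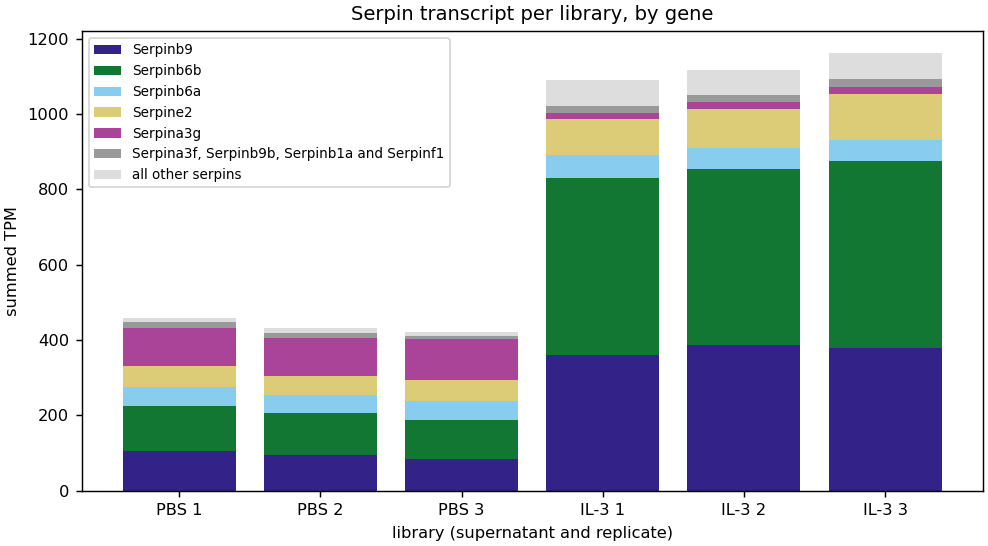
Summed TPM of all serpin genes in each library, stacked by gene, with PBS supernatant replicate 2 taken from its isoform table. Columns reach 422 to 460 TPM with PBS supernatant and 1090 to 1162 TPM with IL-3 supernatant, with the largest parts of the latter in Serpinb6b and Serpinb9.

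Isoform values exist for PBS supernatant replicate 2 alone and describe that library. Serpinb9-201 held 92.1% of the TPM of Serpinb9, Serpine2-201 held 99.1% of Serpine2, and Serpinb6a-202 held 86.5% of Serpinb6a, which has 17 isoforms in the table. Serpinb6b was split among the coding isoforms Serpinb6b-202 (69.5%) and Serpinb6b-203 (16.7%) and the nonsense-mediated decay isoform Serpinb6b-201 (13.7%). Serpina3g was split among Serpina3g-201 (63.4%), Serpina3g-202 (25.9%) and 2 smaller isoforms. For Serpinf1, with 9 counts in that library, 59.8% of the TPM was assigned to a retained-intron isoform and 8.80% to the principal coding isoform, Serpinf1-201.

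Serpin genes lie in clusters, and transcript was detected from few genes of each. The clade B cluster on chromosome 13 holds 15 genes with a serpin symbol over 1161 kb, and 5 of them passed the count filter: Serpinb6b, Serpinb9, Serpinb9b, Serpinb1b and Serpinb6a. Serpinb6b, Serpinb9 and Serpinb9b are consecutive there, each on the plus strand, and all were higher with IL-3 supernatant. The 9 other genes from Serpinb1c to Serpinb6c had 0 counts in every library, as did Gm11397, which RefSeq names Serpinb9h. Of the genes that flank the cluster, Wrnip1 (log2 0.01, SE 0.06) and Ripk1 (-0.09, SE 0.06), a kinase of cell death signalling, did not pass the test. The clade A cluster on chromosome 12 holds 23 serpins over 799.5 kb, of which only Serpina3f and Serpina3g had any count. The interferon-induced gene Ifi27l2a, which lies beyond Ppp4r4 and Ifi27l2b on one side of that cluster, fell by 1.55 on the log2 scale (SE 0.14, edgeR adjusted p = 2.7e-07), while Dicer1 downstream did not pass (log2 -0.0052, SE 0.06). None of the 11 clade B serpins of the cluster on chromosome 1 passed the filter.

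**Figure D3:**
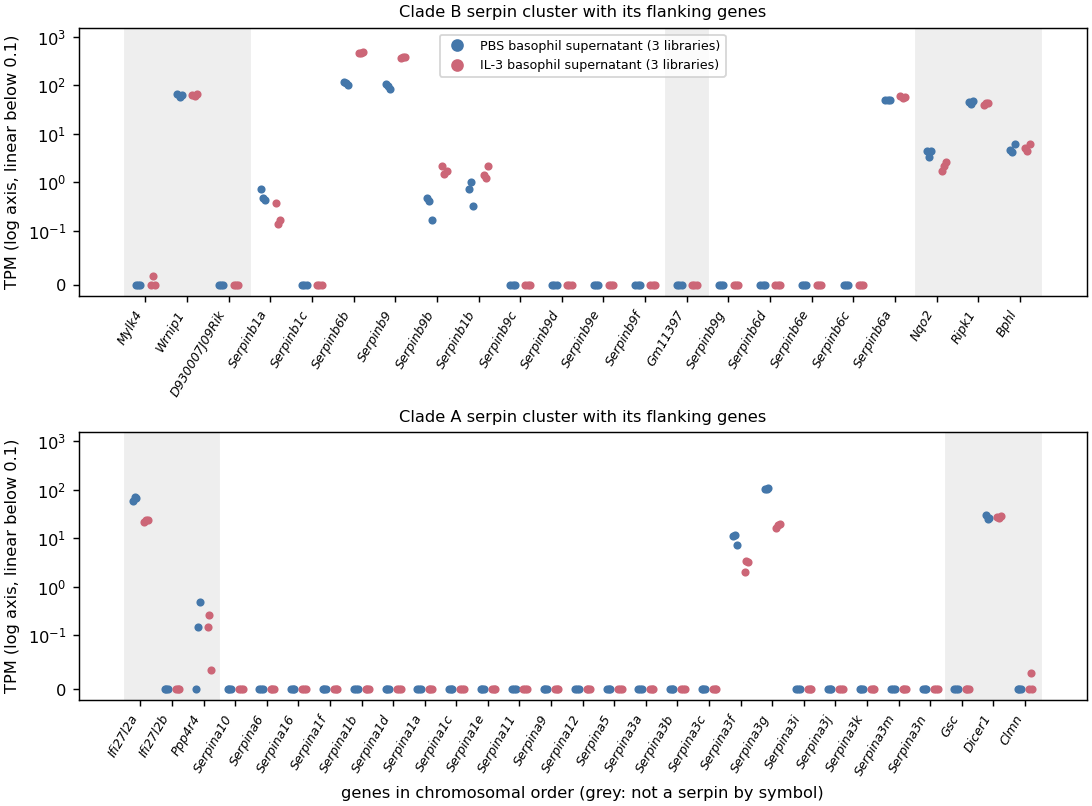
TPM of the genes of the clade B cluster on chromosome 13 and the clade A cluster on chromosome 12 with their flanking genes, in order along the chromosome, with 1 point per library on an axis that is logarithmic above 0.1 and linear below. Neighbouring Serpinb6b and Serpinb9 stand highest with IL-3 supernatant, Serpina3f and Serpina3g are lower with it, and most other serpins sit at 0.

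Most of the 59 serpins outside the 9 had no transcript in these libraries: 51 had 0 counts in all libraries and 4 more had at most 22 counts over the 6 libraries. The tested genes are read against all 12407 tested, of which 14.8% were called higher and 16.1% lower (30.9% in all) at an edgeR adjusted p below 0.05. Serpinb1b, a relative of Serpinb1a, was at 0.613 ± 0.328 and 1.38 ± 0.400 CPM (SD, n = 3 each) and did not pass (log2 1.16, edgeR adjusted p = 0.077), though it did without PBS supernatant replicate 2 (adjusted p = 0.047). For Serpinc1, which encodes antithrombin, the means of 2.43 ± 0.776 and 2.63 ± 0.763 CPM did not differ past the threshold (edgeR adjusted p = 0.84). Serpini1, which encodes neuroserpin, had means of 2.00 ± 0.292 and 1.48 ± 0.173 CPM and missed it too (edgeR adjusted p = 0.38).

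**Figure D4:**
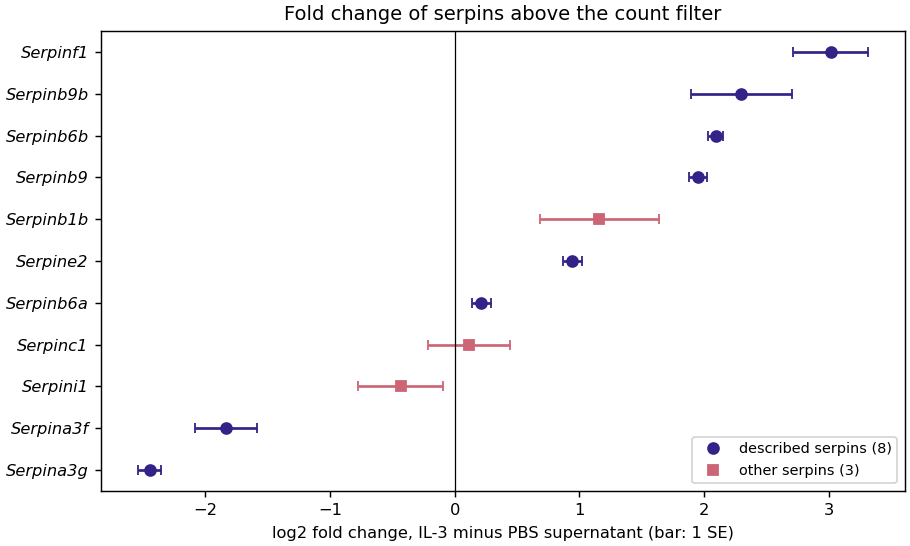
Log2 fold change, IL-3 minus PBS supernatant, of 8 of the 9 described serpins and of Serpinb1b, Serpinc1 and Serpini1, with bars of 1 SE from the fit over 6 libraries. Serpinf1 lies highest at 3.02, Serpinb6b and Serpinb9 near 2, and Serpina3f and Serpina3g lie below 0.

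The proteases that these serpins act on changed unevenly. Of 6 tested genes of granzymes, perforin and their granule carrier, 5 rose and none fell (median log2 1.64, beside -0.0047 over all tested genes). Gzma and Gzmf, with 21 and 9 counts over the PBS libraries, passed the count filter only through the IL-3 libraries where they were high. The count and the median rest partly on them. Gzmf also lost its call without PBS supernatant replicate 3 or IL-3 supernatant replicate 3 (edgeR adjusted p from 0.065 to 0.11). Gzmb, the target of Serpinb9, had means of 4525 ± 110 CPM in the PBS libraries and 8689 ± 226 CPM in the IL-3 libraries (SD, n = 3 each). It rose by log2 0.94 (SE 0.05, edgeR adjusted p = 2.3e-10). Gzma, the target of Serpinb6b, rose from 0.390 ± 0.198 to 7.18 ± 2.16 CPM (log2 4.17, SE 0.36). Per length, Gzma reached 10.9 to 20.2 TPM with IL-3 supernatant, beside 469 to 495 TPM of Serpinb6b. Gzmm, the target of Serpinb9b, had too few counts to be tested, 22 in all PBS libraries and 24 in all IL-3 libraries. Gzmc (log2 2.34) and Srgn, the proteoglycan that packs granzymes (0.80), rose, and Prf1, which encodes perforin, did not pass (0.12, SE 0.07, edgeR adjusted p = 0.20).

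Of 13 tested cathepsins and lysosomal proteases, 2 rose and 6 fell (median log2 -0.17). Ctsb, which encodes cathepsin B, a target of Serpina3g, was at 93.7 ± 4.93 and 105 ± 5.93 CPM (SD, n = 3 each) and did not pass (log2 0.16, edgeR adjusted p = 0.060). The call was made without IL-3 supernatant replicate 2 (edgeR adjusted p = 0.024), with no filter (adjusted p = 0.0496) and with library size scaling alone (adjusted p = 0.043). Ctsl, for cathepsin L, rose by log2 0.68 (SE 0.13) and Ctsz by 0.72 (SE 0.06). Ctss, for cathepsin S (log2 -1.11), Ctsw (-0.78), Napsa (-2.02) and Ctsd (-0.31) fell. Ctsc, which encodes the cathepsin that activates granzymes, fell by 0.17 on the log2 scale (SE 0.05, edgeR adjusted p = 0.024). That call was lost without any 1 of PBS supernatant replicates 2 and 3 and IL-3 supernatant replicates 2 and 3 (adjusted p from 0.066 to 0.10), with the replicate number as a block (adjusted p = 0.056) and with library size scaling alone (adjusted p = 0.076).

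For Serpine2, the genes of its target proteases were near absent and those of the receptors moved apart. Plau, for urokinase, was at 0.527 ± 0.436 and 0.562 ± 0.139 CPM (SD, n = 3 each) and did not pass (edgeR adjusted p = 0.93). Plat, for tissue plasminogen activator, had 0 and 4 counts over the groups, and F2, for thrombin, had 2 and 0. Of 15 tested genes of this system 5 rose and 6 fell (median log2 0.09). Plaur, for the urokinase receptor, rose by log2 1.63 (SE 0.12), Lrp1, for an endocytic receptor that clears serpin-protease complexes, by 2.71 (SE 0.21), and the convertase gene Furin by 1.75 (SE 0.06). Procr, for the protein C receptor, rose by 2.56 (SE 0.50). The thrombin receptor gene F2r fell from 67.9 ± 5.50 to 29.7 ± 0.856 CPM (SD, n = 3 each). Its log2 fold change of -1.19 was far larger than its error (SE 0.08, edgeR adjusted p = 4.7e-09). F2rl1, for a related protease-activated receptor, the membrane protease gene St14 and Anxa2 fell too (log2 -1.78, -1.16 and -0.41).

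Other families of protease inhibitor also went both ways, with 4 of 12 tested genes higher and 3 lower (median log2 0.12). Cst7, for cystatin F, an inhibitor of granzyme-activating cathepsins, rose by log2 0.51 (SE 0.07, edgeR adjusted p = 2.3e-05). Timp1, for an inhibitor of matrix metalloproteases, rose from 0.0930 ± 0.0312 to 1.56 ± 0.161 CPM (SD, n = 3 each). Timp1 was so low with PBS supernatant that it passed the count filter only through the IL-3 libraries where it was high. The count and the median of this list rest partly on it. Timp2 fell (log2 -2.36), as did Itih5, an inter-alpha-trypsin inhibitor gene (log2 -3.73). Reck, another metalloprotease inhibitor gene, fell by 0.60 on the log2 scale, but did not pass on TPM (adjusted p from 0.073 to 0.12). Cst3 (log2 0.32) and Spint1 (0.93) passed narrowly (edgeR adjusted p = 0.031 and adjusted p = 0.023). Each lost its call when single libraries were left out: Cst3 without PBS supernatant replicates 1 or 3 or IL-3 supernatant replicates 1 or 2 (adjusted p from 0.076 to 0.14), and Spint1 without PBS supernatant replicates 2 or 3 or IL-3 supernatant replicates 1 or 3 (adjusted p from 0.065 to 0.13). Spint1 did not pass on TPM either (adjusted p from 0.053 to 0.37). Of 19 tested caspases and death receptor genes, 5 rose and 5 fell (median log2 0.01). Casp6 (log2 1.65), Fasl, for the Fas ligand (0.91), Cflar, for an inhibitor of caspase-8 activation (0.45), and Casp4 (0.77) rose. Diablo (-0.43), Casp8 (-0.35) and Casp2 (-0.34) fell. None of the 14 neutrophil and mast cell proteases passed the filter, and no more than 1 count was found for any of them.

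**Figure D5:**
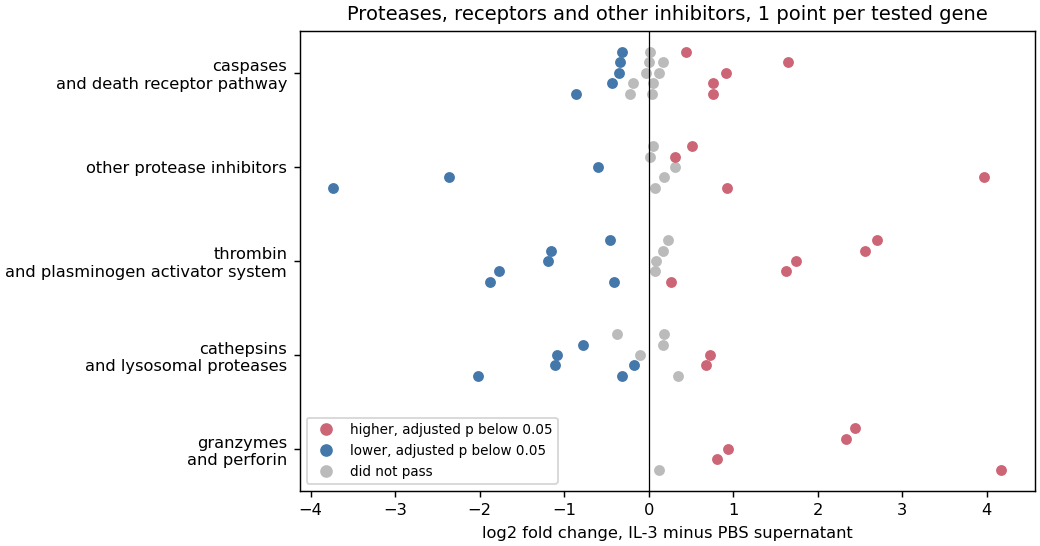
Log2 fold change of each tested gene of 5 lists of proteases, receptors and inhibitors, 1 point per gene, coloured by the edgeR call at an adjusted p below 0.05. Granzyme genes lie to the right of 0, while the other lists hold genes that rose and genes that fell.

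The genes with the most similar profile were found by the root mean square difference of log2 CPM over the 6 libraries, after centring each on its PBS mean, among 9283 other genes of average log2 CPM 2 or more. Nearest to Serpinb9 were Atf3, a stress-response factor (0.060), the phosphatase gene Dusp10 (0.11) and Ppp2r3a (0.11). For Serpinb6b they were Serpinb9 itself (0.11), Atf3 (0.13) and Ptprn (0.13). For Serpine2 they were Gstt2 (0.016), the kinase gene Plk2 (0.063) and Sbf2 (0.070). Nearest to Serpina3g were Pecam1, an adhesion receptor (0.076), and the interferon-induced GTPase genes Iigp1 (0.12) and Gbp6 (0.13). The measure mostly follows the size of the difference between the groups, which these genes share.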

How the data were processed

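Poly(A) RNA of 6 libraries was sequenced from TruSeq libraries, per the labels' protocols. The authors deposited RSEM expected counts per gene, estimated from reads that need not be assigned to one gene, and the submitters' processing notes name RSEM 1.2.12, Bowtie2 2.2.0, edgeR 3.20.9 and GRCm38. The authors also deposited TPM, which corrects for transcript length, as gene tables for 5 libraries; PBS supernatant replicate 2 has an isoform table, which was summed to genes. The sources used here do not give the annotation version or the strand setting.

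The expected counts were rounded, filtered (filterByExpr), scaled by TMM and tested with edgeR 4.0.16 (quasi-likelihood, robust, group as the only term, all 6 libraries), with Benjamini-Hochberg adjustment over 12407 genes and a threshold of 0.05. SE was the absolute log2 fold change over the square root of F. The pipeline was tested on simulated data with 50 genes changed at each fold. It recovered 28% at 1.25-fold, 52% at 1.5-fold, 80% at 2-fold and 88% at 4-fold. Of the calls, 16 (11.4%) were false, more than the threshold of 0.05 allows for. Coordinates are from GENCODE M21. Symbols matched 46005 of 46517 IDs. Protein sequences were planned but not used here, and coding stretches of the transcripts stand in for them.

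The members and the gene lists were chosen with earlier results of these data known. Named genes were the 9 members, the other tested serpins, up to 4 called genes with the smallest p per list and direction, and Gzmb, Gzma, Gzmm, Prf1, Ctsb, Ctsc, Ctsl, Plau, Cst7 and F2r. Some genes that this rule names are not reported here. Ripk1, Nqo2, Wrnip1, Ifi27l2a and Dicer1 were named as neighbours. Elane, Ctsg, Prtn3, Plat and F2 were added after their values were seen. Alternatives were other scalings, filters, tools (DESeq2 1.42.0, limma 3.58.1), log2 TPM, a replicate block and leaving out each library.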

Additional observations from a re-analysis of the deposited data

How the results depend on the processing

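No fold change of the 8 tested members reversed under any of the 17 alternatives run for them. Over all settings Serpinb9 lay between 1.87 and 2.01, Serpinb6b between 2.03 and 2.14, and Serpina3g between -2.53 and -2.35 on the log2 scale, whereas the scarce Serpinb9b (1.04 to 2.54), Serpinf1 (2.33 to 3.60) and Serpina3f (-2.03 to -1.38) ranged more widely. Of all genes, 3835 were called, against 2501 with limma on log2(TPM + 1) in 5 libraries, 2486 on log2(TPM + 0.1) and 1489 on log2(TPM + 1) without a filter, which uses 1 PBS library fewer. On log2(TPM + 1) in all 6 libraries, with the summed isoform values for PBS supernatant replicate 2, 2808 genes were called. Without a filter on TPM the called genes were 6 of the thrombin and plasminogen list (11 in the main analysis), 3 of the other inhibitors (7) and 5 of the caspase list (10). Leaving out 1 library gave 3077 to 4018 called genes and 1 to 2 called serpins outside the members, with Serpinb1b among them only without PBS supernatant replicate 2. Of 69 single genes outside the members, none reversed, but 27 changed their call under at least 1 alternative: 13 only on TPM without a filter, and 14 under other settings, among them single libraries left out, other scalings, the replicate block and a threshold of 0.01. The correlations of deviations from the group mean were -0.15, 0.05 and 0.26 for same-numbered libraries and -0.29 to 0.26 for the others. With 3 libraries per group, these values cannot tell whether the replicate numbers pair the libraries. With a replicate block 3410 genes were called. The cause of these differences was not tested. Low depth limits Serpinb9b, Serpinb1a and Serpinf1, whose counts were at most 29 in any PBS library.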
